A study of Bos taurus with 24 samples.

Results

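The NRF2 antioxidant genes described here are 9 genes: NFE2L2, which encodes the transcription factor NRF2, KEAP1, which encodes its inhibitor, and the redox genes HMOX1, NQO1, GCLM, GCLC, TXNRD1, SRXN1 and TXN2. They were chosen by name, as the rows of the deposited gene table that carry these symbols, and they are 9 of the 11937 genes listed. All 9 are protein coding, each symbol belongs to a single gene, and all 9, like every gene listed, passed the filter on low counts. RNA was sequenced from wild-type bovine satellite cells, the resident stem cells of muscle, which here came from the longissimus dorsi. Satellite cells of 3 lines, mixed and at passage 3, grew either in coculture, in plates whose 0.4 µm pores separate them from fibroblasts at passage 10, or in monoculture without fibroblasts. The coculture groups are proliferation (the 5 days in medium with 20% fetal bovine serum), 24 h and 72 h after the change to medium with 10% horse serum, which starts differentiation. The monoculture groups are the same 3 stages, and each of the 6 groups has 4 libraries. Since the lines were mixed, no library belongs to a single line, and the labels leave unsaid if an empty insert was used in monoculture and if replicates were separate cultures. The p-values therefore measure the spread between these libraries, which may be technical.

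NRF2 is held low in unstressed cells by KEAP1, an adaptor that hands it to the CUL3 ubiquitin ligase for breakdown. Oxidants and electrophiles modify cysteines of KEAP1, NRF2 then accumulates, pairs with a small MAF protein and binds antioxidant response elements near genes of haem breakdown, quinone reduction, glutathione synthesis and the thioredoxin system. Because this control acts mostly on the protein, the transcript of NFE2L2 is not a measure of NRF2 activity. TXN2, the thioredoxin of mitochondria, is not usually counted among the direct NRF2 targets.

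The deposited tables place NFE2L2 (ENSBTAG00000019255) on chromosome 2 at 19617075 to 19649649 and KEAP1 (ENSBTAG00000003543) on chromosome 7 at 15009384 to 15017614. HMOX1 (ENSBTAG00000015582) lies on chromosome 5 at 73623453 to 73630534, TXNRD1 (ENSBTAG00000013912) on the same chromosome at 67898938 to 67961973 and TXN2 (ENSBTAG00000000014) at 74883638 to 74892740. NQO1 (ENSBTAG00000020632) is on chromosome 18 at 36784720 to 36798053, GCLM (ENSBTAG00000007842) on chromosome 3 at 49581839 to 49599562, GCLC (ENSBTAG00000015571) on chromosome 23 at 6982473 to 7026453 and SRXN1 (ENSBTAG00000059334) on chromosome 13 at 60402969 to 60410519. For these coordinates the genome build was not given in the sources used here. The span of each of the 9 genes overlapped 0 other listed genes.

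Library totals, in mega-counts (M), were 11.5 to 34.96 M in coculture and 14.5 to 23.9 M in monoculture. GCLM had the fewest counts of the 9 genes, 56 to 233 per library, and TXNRD1 the most, 3177 to 10492. Of 16 satellite cell and myoblast markers 6 are listed, among them PAX3 and DES, while PAX7, MYF5, MYOD1 and MYOG are not among the genes listed. The 6 summed to 253 to 276 CPM (counts per M counts of a library, M as above, scaled by the TMM method) in coculture against 207 to 214 CPM in monoculture in proliferation, and to 279 to 290 against 449 to 487 CPM at 72 h. Lower means in coculture at 72 h were those of ITGA7 (38.5 against 155 CPM), DES (86.1 against 148 CPM), CD82 (16.8 against 25.2 CPM) and NCAM1 (41.8 against 46.6 CPM). PAX3 (20.1 against 17.4 CPM) and SDC4 (83.2 against 74.6 CPM) had higher ones. The 13 listed of 16 fibroblast markers summed to 65000 to 66300 CPM in coculture against 55500 to 59700 CPM in monoculture in proliferation, and to 115000 to 119000 against 122000 to 140000 CPM at 72 h. The collagen genes COL1A1, COL1A2 and COL3A1 made up most of these sums, 112000 to 116000 against 118000 to 135000 CPM at 72 h. Other fibroblast markers had higher means in coculture at 72 h, such as PDGFRA (121 against 46.3 CPM) and DCN (508 against 424 CPM), or lower ones, such as PDGFRB (160 against 218 CPM) and POSTN (807 against 1150 CPM). Of leukocyte markers only CD68 is listed, at up to 2.17 CPM. The part of these marker levels in the results below was not tested, and in RNA from whole wells fewer cells of a type and less RNA per cell cannot be told apart. All monoculture libraries, those of coculture in proliferation and replicates 1 and 2 of coculture at 24 h were sequenced in lane 6, the other coculture libraries in lane 7. A code in the library descriptions is the same in both cultures in proliferation and differs between them at 24 h and 72 h. In monoculture this code is 2 in proliferation and 1 at 24 h and 72 h, and in coculture it is 2 throughout. Its meaning is not given. It cannot be told apart from the monoculture change after proliferation, nor from the culture difference at 24 h and 72 h.

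Of the 4 monoculture libraries at 72 h, replicate 3 stood above the other 3 for 7 of the 9 genes. It held 170.1 CPM of SRXN1, against 89.7 to 104.7 CPM in the others, 359.4 CPM of TXNRD1 against 239.4 to 258.3 CPM, and 131.3 CPM of NQO1 against 90.0 to 99.5 CPM. On the log2 scale it lay above the mean of the other 3 by 0.79 for SRXN1, 0.53 for TXNRD1, 0.47 for NQO1, 0.25 for NFE2L2 and 0.23 for HMOX1, and below it for GCLM (-0.07). The median of all genes was 0.002 and their 95th percentile 0.34. This library was the highest of its group for 31.2% of all genes, and it is 1 of 4 libraries rich in nuclear ribosomal RNA, at 2.14% of counts. Replicate 4, at 1.76%, had 100.3 CPM of SRXN1 and 258.3 CPM of TXNRD1. Over all genes its counts lay closer to those of replicate 3 (chi-square per degree of freedom 17.3) than those of replicates 1 (71.7) and 2 (74.5) did. The part of ribosomal RNA in these values was not tested. Results that rest on replicate 3 are given below with and without it.

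**Figure D1:**
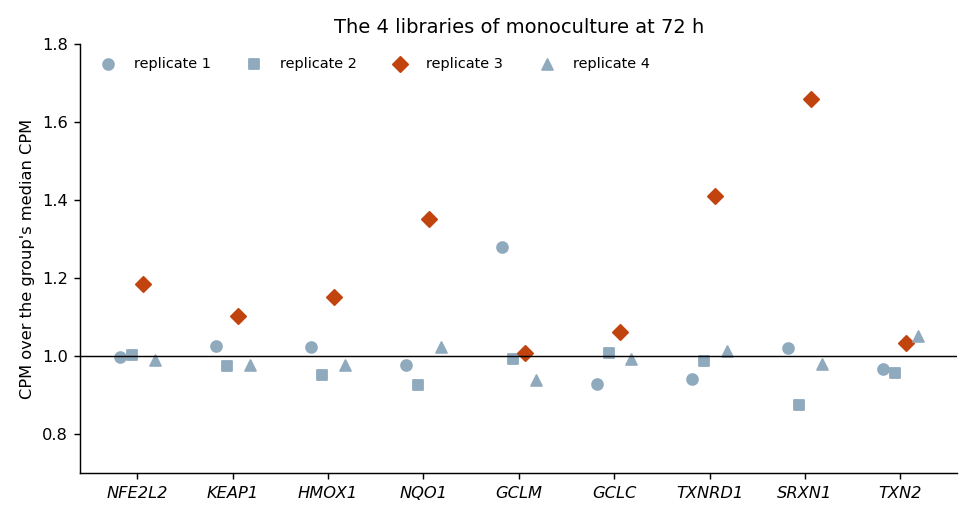
Level of each of the 9 genes in the 4 monoculture libraries at 72 h, as CPM over the group's median CPM, with 1 symbol per library. Replicate 3 (diamonds) is highest for 7 of the 9 genes, with SRXN1 at 170.1 CPM and TXNRD1 at 359.4 CPM.

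**Figure D2:**
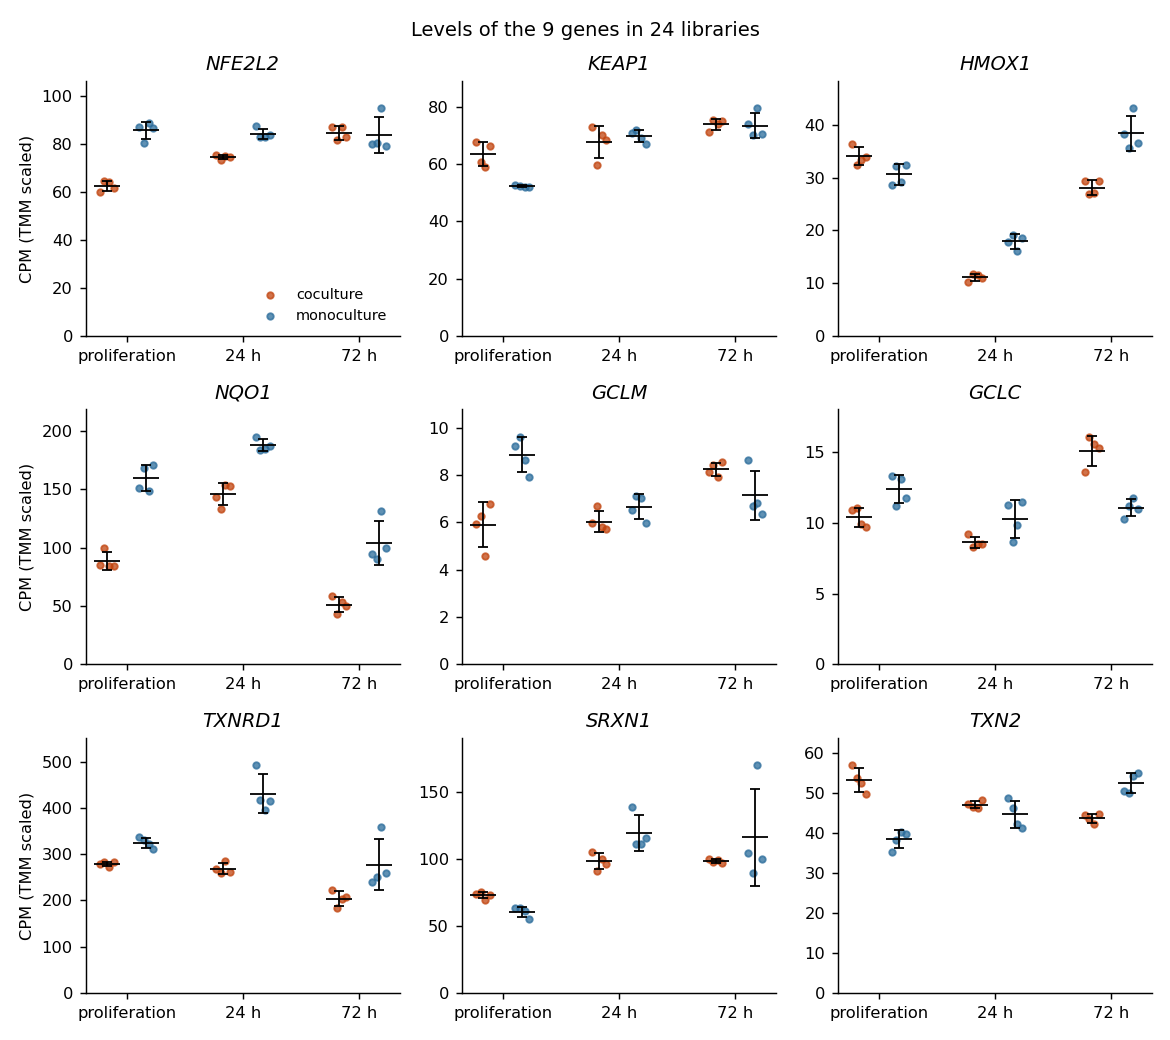
Levels in CPM (scaled by TMM) of the 9 genes in all 24 libraries, by time and culture, with points for libraries and bars for mean ± SD (n = 4). HMOX1 dips at 24 h in both cultures, to 11.1 CPM in coculture and 17.9 CPM in monoculture, and NQO1 is lower in coculture at all 3 times.

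In proliferating cells all 9 genes differed between the cultures, and not in one direction: KEAP1, HMOX1, SRXN1 and TXN2 were higher in coculture, and NFE2L2, NQO1, GCLM, GCLC and TXNRD1 were lower. At 24 h 0 were higher and 4 lower (NFE2L2, HMOX1, NQO1 and TXNRD1). At 72 h GCLC was higher and HMOX1, NQO1, TXNRD1 and TXN2 were lower. NQO1 and TXNRD1 were lower in coculture at each of the 3 times. These calls are at an adjusted p under 0.05 in edgeR's quasi-likelihood test over all listed genes, of which 30.3% were called higher and 28.7% lower in proliferation, 11.5% and 12.2% at 24 h, and 25.1% and 25.4% at 72 h. The 4 libraries of each culture did not overlap for 9, 5 and 5 of the 9 genes, against 53.0%, 24.4% and 42.0% of all genes. The median log2 fold change of the 9 genes was -0.22, -0.24 and -0.23, in order of time, and that of all genes 0.004, -0.003 and -0.001. The 72 h median was the value of SRXN1, which without monoculture 72 h replicate 3 was 0.01 and still the middle of the 9. Without monoculture 72 h replicate 3, 9, 6 and 5 genes were called. With DESeq2 in place of edgeR, 6, 4 and 5 were.

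**Figure D3:**
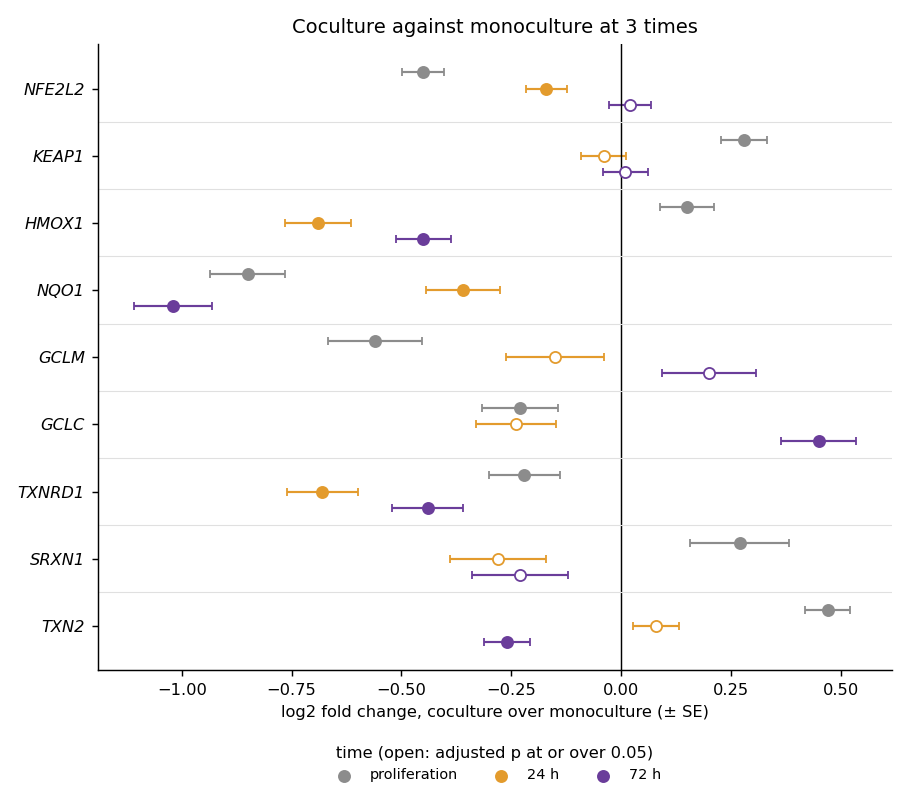
Log2 ratio of coculture to monoculture (points) and its SE (bars) for the 9 genes in proliferation, at 24 h and at 72 h. Filled points have an adjusted p under 0.05; all points of NQO1 and TXNRD1 lie left of 0, and GCLC turns to 0.45 at 72 h.

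NFE2L2 was lower in coculture in proliferation and at 24 h. NFE2L2 stood at 60.0, 64.4, 64.2 and 61.7 CPM in coculture in proliferation, against 87.1, 80.3, 88.5 and 86.5 CPM in monoculture. At 24 h NFE2L2 had 75.3, 73.3, 74.9 and 74.6 CPM in coculture, against 87.3, 82.9, 82.8 and 83.7 CPM in monoculture. At 72 h NFE2L2 had 87.2, 81.6, 87.1 and 82.8 CPM in coculture, against 79.8, 80.3, 94.8 and 79.3 CPM in monoculture. Every coculture library lay below every monoculture library at the first 2 times, and the cultures overlapped at 72 h. The log2 fold change was -0.45 ± 0.048 (SE; edgeR adjusted p = 4.61e-09) in proliferation and -0.17 ± 0.0475 (edgeR adjusted p = 0.00714) at 24 h. Within lane 6, with 2 coculture libraries, the 24 h value was -0.18 and not called (edgeR adjusted p = 0.0567). At 72 h it was 0.02, with an approximate 95% interval of -0.08 to 0.12, and 0.09 without monoculture replicate 3. From highest to lowest, the 3 monoculture groups and coculture at 72 h overlapped each other in order, at means of 83.6 to 85.6 CPM, with coculture at 24 h (74.5 ± 0.901 CPM) and coculture in proliferation (62.6 ± 2.14 CPM; SD, n = 4) each apart below them.

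KEAP1, the adaptor that sends NRF2 to breakdown, went the other way in proliferation. KEAP1 stood at 67.5, 60.8, 59.1 and 66.3 CPM in coculture in proliferation, against 52.7, 52.3, 51.9 and 52.1 CPM in monoculture. The lowest coculture library thus lay above the highest monoculture library, and the log2 difference was 0.28 ± 0.0523 (SE; edgeR adjusted p = 3.86e-05). At 24 h KEAP1 had 72.8, 59.8, 70.0 and 68.3 CPM in coculture, against 70.8, 71.9, 69.2 and 67.1 CPM in monoculture. At 72 h KEAP1 had 71.3, 75.5, 73.8 and 75.1 CPM in coculture, against 73.8, 70.1, 79.4 and 70.3 CPM in monoculture. The cultures overlapped at both later times, with log2 fold changes of -0.04 (approximate 95% interval -0.15 to 0.06) and 0.01 (-0.10 to 0.12). Monoculture in proliferation (52.2 ± 0.354 CPM; SD, n = 4) was the lowest of the 6 groups, and no library of the other 5 groups fell within its range. Those 5 ran from 63.4 to 73.9 CPM on average, and neighbours among them overlapped.

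HMOX1 encodes haem oxygenase 1, which opens haem to biliverdin, iron and carbon monoxide, and its largest changes were between times. HMOX1 stood at 36.4, 32.4, 33.4 and 33.9 CPM in coculture in proliferation, against 28.6, 32.2, 29.2 and 32.4 CPM in monoculture. At 24 h HMOX1 had 10.3, 11.7, 11.5 and 10.9 CPM in coculture, against 17.8, 19.2, 16.1 and 18.5 CPM in monoculture. At 72 h HMOX1 had 29.3, 26.8, 27.0 and 29.4 CPM in coculture, against 38.3, 35.6, 43.1 and 36.6 CPM in monoculture. All coculture libraries were below all monoculture libraries at 24 h and 72 h, while in proliferation they were above them by less than the rounding of the values at 32.4 CPM. The log2 fold change was -0.69 ± 0.0751 (SE; edgeR adjusted p = 3.62e-08) at 24 h and -0.71 within lane 6. At 72 h HMOX1 differed by -0.45 ± 0.0624 (edgeR adjusted p = 5.23e-07), and by -0.39 without monoculture replicate 3. The proliferation value of 0.15 ± 0.0618 (edgeR adjusted p = 0.0409) was not called by the DESeq2 test, with library sizes alone (0.08) or within lane 6 (0.13), nor in the authors' deposited table (adjusted p = 0.0593). In order of level, monoculture at 72 h (38.4 CPM), coculture in proliferation (34.0 CPM), monoculture in proliferation (30.6 CPM) and coculture at 72 h (28.1 CPM) overlapped their neighbours, except the pair in proliferation. The 24 h groups, monoculture at 17.9 ± 1.34 CPM and coculture at 11.1 ± 0.612 CPM (SD, n = 4), lay apart below.

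NQO1 encodes a quinone reductase that uses NAD(P)H, a common readout of NRF2 in human and mouse cells, and it had the largest difference between cultures of the 9 genes in proliferation and at 72 h. NQO1 stood at 85.2, 99.7, 84.0 and 84.5 CPM in coculture in proliferation, against 151.1, 168.3, 148.6 and 170.6 CPM in monoculture. At 24 h NQO1 had 143.6, 132.8, 153.2 and 153.0 CPM in coculture, against 194.8, 183.7, 184.2 and 187.3 CPM in monoculture. At 72 h NQO1 had 58.6, 42.9, 53.3 and 49.7 CPM in coculture, against 94.9, 90.0, 131.3 and 99.5 CPM in monoculture. No coculture library reached a monoculture library of its own time. The log2 fold change was -0.85 ± 0.086 (SE; edgeR adjusted p = 1.81e-09) in proliferation, a level 44.7% lower in coculture. At 24 h NQO1 differed by -0.36 ± 0.0842 (edgeR adjusted p = 0.00176), and by -0.44 within lane 6. At 72 h the value was -1.02 ± 0.0894 (edgeR adjusted p = 6.76e-11), -0.89 without monoculture replicate 3 and -1.17 with lane as a term. Among the 6 groups NQO1 was highest in monoculture at 24 h (187.5 ± 5.13 CPM) and lowest in coculture at 72 h (51.1 ± 6.59 CPM; SD, n = 4). Monoculture in proliferation overlapped coculture at 24 h, and monoculture at 72 h overlapped coculture in proliferation.

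GCLM and GCLC encode the modifier and catalytic subunits of glutamate-cysteine ligase, the first and rate-limiting enzyme of glutathione synthesis. GCLM, at 4.57 to 9.62 CPM the lowest of the 9 genes in counts, stood at 5.94, 6.27, 4.57 and 6.80 CPM in coculture in proliferation, against 9.25, 9.62, 8.65 and 7.94 CPM in monoculture. The libraries did not overlap, and the log2 fold change was -0.56 ± 0.107 (SE; edgeR adjusted p = 4.8e-05). At 24 h GCLM had 5.98, 6.68, 5.79 and 5.72 CPM in coculture, against 6.53, 7.11, 7.05 and 5.96 CPM in monoculture. At 72 h GCLM had 8.12, 8.41, 7.92 and 8.54 CPM in coculture, against 8.65, 6.71, 6.82 and 6.35 CPM in monoculture. Both later times overlapped, with log2 fold changes of -0.15 (approximate 95% interval -0.38 to 0.08) and 0.20 (-0.03 to 0.42). The 72 h value rested on monoculture replicate 1, at 8.65 CPM: without it GCLM differed by 0.31 and was called (edgeR adjusted p = 0.0222), and with library sizes alone by 0.33 (edgeR adjusted p = 0.0144). All neighbours in the order of its 6 group means, from monoculture in proliferation (8.87 CPM) to coculture in proliferation (5.90 CPM), overlapped.

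GCLC was called higher in coculture at 72 h, and it was lower in proliferation. GCLC stood at 10.9, 11.1, 9.96 and 9.72 CPM in coculture in proliferation, against 13.3, 11.2, 13.1 and 11.8 CPM in monoculture. At 24 h GCLC had 9.21, 8.32, 8.54 and 8.55 CPM in coculture, against 11.3, 8.65, 9.85 and 11.5 CPM in monoculture. At 72 h GCLC had 13.6, 16.1, 15.6 and 15.3 CPM in coculture, against 10.3, 11.2, 11.8 and 11.01 CPM in monoculture. Coculture lay wholly below in proliferation, by a narrow gap, overlapped at 24 h, and lay wholly above at 72 h. The log2 fold change was 0.45 ± 0.0855 (SE; edgeR adjusted p = 5.33e-05) at 72 h, and 0.49 with lane as a term (edgeR adjusted p = 0.0216). In proliferation GCLC differed by -0.23 ± 0.0862 (edgeR adjusted p = 0.0218). The 24 h value of -0.24 ± 0.0913 missed the threshold (edgeR adjusted p = 0.0529), and passed it without monoculture 72 h replicate 3 (edgeR adjusted p = 0.0495) or without monoculture 24 h replicate 2 (-0.33, edgeR adjusted p = 0.0101). Coculture at 72 h (15.1 ± 1.05 CPM; SD, n = 4) stood apart above the other 5 groups, which overlapped their neighbours at means of 8.65 to 12.4 CPM.

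TXNRD1 encodes the cytosolic thioredoxin reductase, a selenoprotein that passes electrons from NADPH to thioredoxin, and it was lower in coculture throughout. TXNRD1 stood at 279.3, 282.5, 273.3 and 282.4 CPM in coculture in proliferation, against 336.5, 329.8, 322.6 and 310.4 CPM in monoculture. At 24 h TXNRD1 had 267.1, 260.2, 285.9 and 261.4 CPM in coculture, against 492.2, 417.2, 396.1 and 415.9 CPM in monoculture. At 72 h TXNRD1 had 222.7, 184.2, 202.3 and 206.9 CPM in coculture, against 239.4, 251.3, 359.4 and 258.3 CPM in monoculture. The cultures did not overlap at any of the 3 times, and the gap was widest at 24 h. There the log2 fold change was -0.68 ± 0.0808 (SE; edgeR adjusted p = 1.85e-07), and -0.71 within lane 6. In proliferation TXNRD1 differed by -0.22 ± 0.0806 (edgeR adjusted p = 0.0215), a call that the DESeq2 test did not make. Without monoculture 72 h replicate 3 the same -0.22 had an SE of 0.0526 (edgeR adjusted p = 0.000723). The authors' deposited table calls this proliferation difference too (adjusted p = 1.73e-09). At 72 h the value was -0.44 ± 0.0812 (edgeR adjusted p = 3.87e-05), and -0.29 ± 0.057 (edgeR adjusted p = 8.88e-05) without monoculture replicate 3. Monoculture at 24 h (430.4 ± 42.4 CPM) stood apart at the top of the 6 groups and coculture at 72 h (204.0 ± 15.9 CPM; SD, n = 4) at the bottom. Monoculture in proliferation (324.8 ± 11.2 CPM) came next to the top, and of the other groups monoculture at 72 h overlapped it, through replicate 3.

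SRXN1 encodes sulfiredoxin 1, which repairs over-oxidised peroxiredoxins. SRXN1 stood at 73.8, 75.2, 69.8 and 73.0 CPM in coculture in proliferation, against 63.3, 63.1, 61.0 and 55.5 CPM in monoculture. At 24 h SRXN1 had 105.4, 91.4, 100.2 and 96.7 CPM in coculture, against 139.2, 111.5, 111.6 and 115.9 CPM in monoculture. At 72 h SRXN1 had 100.2, 98.0, 99.3 and 97.3 CPM in coculture, against 104.7, 89.7, 170.1 and 100.3 CPM in monoculture. Coculture was wholly above monoculture in proliferation and wholly below it at 24 h, and the 72 h libraries overlapped. The proliferation difference of 0.27 ± 0.113 (SE; edgeR adjusted p = 0.0426) was called, but not by the DESeq2 test, with library sizes alone or within lane 6. Without monoculture 72 h replicate 3 the same 0.27 had an SE of 0.0602 (edgeR adjusted p = 0.000328). The authors' deposited table calls this proliferation difference too (adjusted p = 2.35e-06). At 24 h the value was -0.28 ± 0.109 and not called (edgeR adjusted p = 0.0609), although the authors' deposited table calls it (adjusted p = 0.000547). Without monoculture 72 h replicate 3, which enters the spread that the fit shares between groups, the same -0.28 had an SE of 0.0578 (edgeR adjusted p = 0.000452). At 72 h SRXN1 differed by -0.23 ± 0.109 (edgeR adjusted p = 0.0749), and by 0.01 ± 0.0631 without that replicate. Without monoculture replicate 2 or 4 of 72 h, which leaves replicate 3 in, the value was -0.34 or -0.30 and called. The 2 proliferation groups, coculture at 72.9 ± 2.28 CPM and monoculture at 60.7 ± 3.63 CPM (SD, n = 4), were the lowest of the 6 and apart from each other and the rest.

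TXN2, the mitochondrial thioredoxin, reversed sides between proliferation and 72 h. TXN2 stood at 57.0, 53.9, 52.6 and 49.9 CPM in coculture in proliferation, against 35.3, 38.4, 40.3 and 39.9 CPM in monoculture. At 24 h TXN2 had 47.4, 46.5, 46.3 and 48.2 CPM in coculture, against 48.8, 46.2, 42.3 and 41.4 CPM in monoculture. At 72 h TXN2 had 44.5, 43.6, 42.3 and 44.9 CPM in coculture, against 50.7, 50.2, 54.3 and 55.2 CPM in monoculture. Coculture was wholly above in proliferation, overlapped monoculture at 24 h and was wholly below at 72 h. The log2 fold change was 0.47 ± 0.0521 (SE; edgeR adjusted p = 9.01e-09) in proliferation. At 24 h TXN2 differed by 0.08, with an approximate 95% interval of -0.03 to 0.19. At 72 h the value was -0.26 ± 0.0522 (edgeR adjusted p = 0.00011), and -0.13 with library sizes alone, which missed the threshold (edgeR adjusted p = 0.0557). Coculture in proliferation (53.4 CPM) and monoculture at 72 h (52.6 CPM) overlapped at the top of the order, and monoculture in proliferation (38.5 ± 2.24 CPM; SD, n = 4) stood apart at the bottom. Transcripts encoded by the mitochondrial genome took 1.60 to 1.70% of counts in coculture against 2.00 to 2.10% in monoculture in proliferation. These transcripts took 2.14 to 2.36% against 2.81 to 3.26% at 24 h, and 1.76 to 1.91% against 2.19 to 2.55% at 72 h. Their part in the values of TXN2 was not tested.

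Whether some smaller values were called depended on the scaling. With library sizes alone, the median log2 fold change of all genes at 72 h moved by 0.13, and 75.3% of the genes called were higher in coculture, against 49.7% with TMM. Of the 9 genes, 4 were then called higher and 3 lower at 72 h. NFE2L2 (0.15), KEAP1 (0.14) and GCLM (0.33) joined GCLC, and TXN2 (-0.13) was no longer called lower. In proliferation the share of called genes that were higher was 39.5%, against 51.3% with TMM, and 2 of the 9 genes were called higher and 5 lower. HMOX1, NQO1 and TXNRD1 at 24 h and 72 h kept their sign and call under both scalings. No lane holds both cultures at 72 h. A fit with lane as a term, which takes the lane effect from coculture at 24 h, kept the 5 calls at 72 h. Of that group's libraries in lane 6, replicate 2 held 4.07% nuclear ribosomal RNA, against 0.708 to 0.815% in the others of the group. The chi-square per degree of freedom of its counts with theirs was 117 to 144, against 2.95 to 3.84 between the others. The part of replicate 2 in the lane term and in the 24 h values within lane 6 was not tested.

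At 24 h against proliferation, HMOX1 fell in both cultures and NQO1 and SRXN1 rose. In coculture, of the 9 genes 3 were called higher and 3 lower at 24 h against proliferation, beside 21.0% and 22.2% of all genes. In monoculture 5 were higher and 3 lower, beside 34.3% and 34.2%. The code in the library descriptions also changes between these 2 monoculture groups. HMOX1 at 24 h differed from proliferation by a log2 of -1.61 ± 0.0702 (SE; edgeR adjusted p = 1.38e-17) in coculture, where it ranked 10 among all genes by p, and by -0.77 ± 0.0662 (edgeR adjusted p = 1.52e-11) in monoculture. NQO1 rose by 0.72 ± 0.086 in coculture and 0.23 ± 0.084 in monoculture, where library sizes alone gave 0.04, and leaving out monoculture replicate 3 in proliferation gave 0.20, neither of them called. SRXN1 rose by 0.43 ± 0.111 in coculture and 0.98 ± 0.112 in monoculture. GCLC fell by 0.28 in coculture, a call lost with lane as a term, within lane 6 and without coculture replicate 2 in proliferation (-0.24). In monoculture GCLC fell by 0.27, a call lost without replicate 2 of 24 h (-0.19).

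The other members' values in this first step follow for each culture. NFE2L2 rose by 0.25 ± 0.0482 (SE; edgeR adjusted p = 9.63e-05) in coculture, while its monoculture value was -0.02 with an approximate 95% interval of -0.12 to 0.07, or -0.21 and called with library sizes alone. In coculture KEAP1 had 0.09 (interval -0.01 to 0.20), but 0.15 and a call (edgeR adjusted p = 0.0176) without replicate 2 of 24 h, whose 59.8 CPM lies below the 68.3 to 72.8 CPM of the other 3. In monoculture KEAP1 rose by 0.42 ± 0.052. TXNRD1 rose by 0.41 ± 0.0804 in monoculture, against -0.06 (interval -0.23 to 0.11) in coculture, or -0.18 and called (edgeR adjusted p = 0.0368) with library sizes alone. GCLM fell by 0.40 ± 0.106 in monoculture, against 0.01 (interval -0.23 to 0.25) in coculture. TXN2 fell by 0.18 ± 0.0513 in coculture, a call lost within lane 6 (-0.17), and rose by 0.21 ± 0.0528 in monoculture, where library sizes alone gave 0.02.

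Between 24 h and 72 h HMOX1 rose and NQO1 and TXNRD1 fell in both cultures. In coculture 5 of the 9 genes were called higher and 2 lower at 72 h against 24 h, beside 24.4% and 23.8% of all genes. In monoculture 2 were higher and 2 lower, beside 27.3% and 26.6%. HMOX1 rose by a log2 of 1.34 ± 0.0715 (SE; edgeR adjusted p = 3.9e-16) in coculture and 1.10 ± 0.0656 (edgeR adjusted p = 3.58e-15) in monoculture. NQO1 fell by 1.51 ± 0.089 in coculture and by 0.85 ± 0.0856 in monoculture. TXNRD1 fell by 0.40 ± 0.0811 in coculture and by 0.64 ± 0.0808 in monoculture. GCLC and GCLM rose in coculture, by 0.81 ± 0.087 and 0.45 ± 0.109, against 0.11 for both in monoculture, where neither passed the test. Tested directly, this step differed between cultures for GCLC (0.69, edgeR adjusted p = 0.000111) but was not called for GCLM (0.35, edgeR adjusted p = 0.105). NFE2L2 rose by 0.18 ± 0.0476 in coculture, and KEAP1 by 0.13 ± 0.0511. The KEAP1 call was lost with lane as a term, with library sizes alone, without the libraries rich in ribosomal RNA and in 5 fits that left out 1 library, among them coculture replicate 2 of 24 h (0.07). TXN2 rose by 0.23 ± 0.052 in monoculture, or 0.10 and not called with library sizes alone, against -0.11 (interval -0.21 to 0.00) in coculture. SRXN1 was at 0.00 in coculture and -0.04 in monoculture, the monoculture value being -0.28 and called (edgeR adjusted p = 0.000375) without replicate 3 of 72 h.

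**Figure D4:**
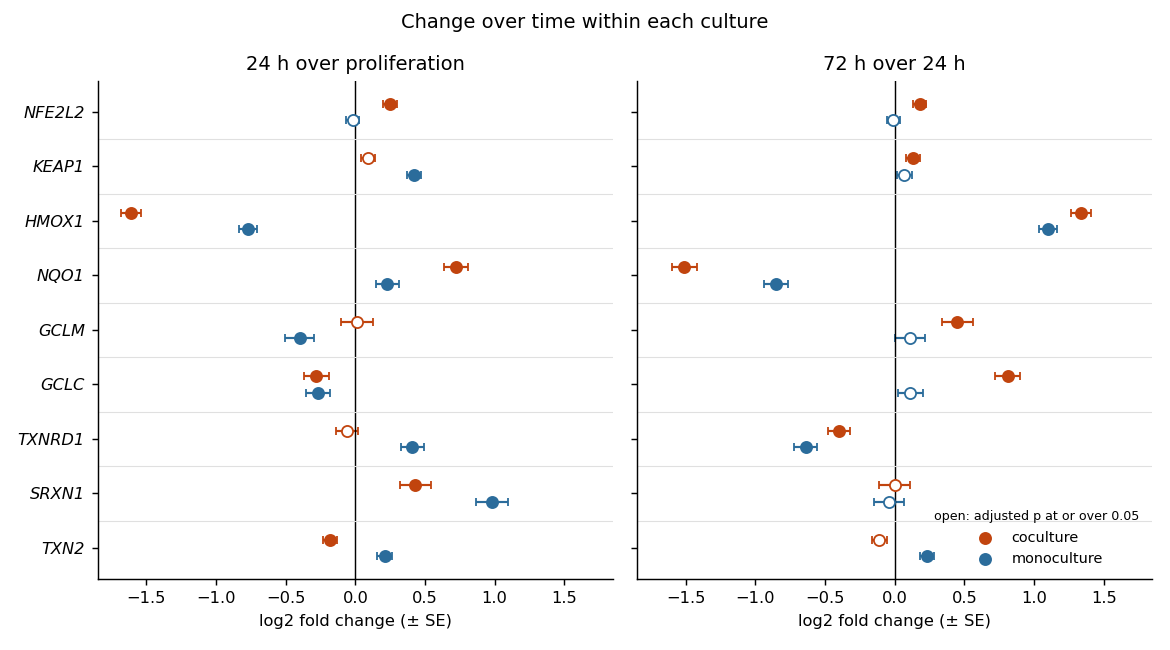
Log2 fold change with its SE of 24 h over proliferation (left) and 72 h over 24 h (right) for the 9 genes, coculture above monoculture in each row. Filled points have an adjusted p under 0.05; HMOX1 falls by 1.61 in coculture at 24 h and rises by 1.34 at 72 h.

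The difference between cultures itself changed with time for most of the 9 genes. Between proliferation and 24 h it changed for 8 of the 9, beside 50.5% of all genes, and between 24 h and 72 h for 4, beside 23.7%. Over the whole span from proliferation to 72 h it changed for 7, beside 62.3%. HMOX1 had the largest first change, with a log2 of -0.84 ± 0.0974 (SE; edgeR adjusted p = 5.83e-08), its coculture level being above monoculture in proliferation and below it at 24 h. TXN2 shifted by -0.73 ± 0.0738 (edgeR adjusted p = 1.28e-09) over the whole span, from above monoculture to below it. GCLM and GCLC shifted the other way, by 0.76 ± 0.152 and 0.68 ± 0.121. NQO1 narrowed its gap at 24 h (0.49 ± 0.12) and widened it again at 72 h (-0.66 ± 0.123), so that the change over the whole span was -0.17 (interval -0.43 to 0.09), or -0.04 without monoculture 72 h replicate 3. SRXN1 shifted by -0.50 over the whole span, but by -0.26 (edgeR adjusted p = 0.0104) without that replicate. Its call was lost with library sizes alone (-0.29) and with lane as a term, and that of KEAP1 (-0.27) with library sizes alone (-0.07). Between 24 h and 72 h the call of NFE2L2 (0.19) was lost with lane as a term and in 8 fits that left out 1 library, and that of TXN2 (-0.34) with library sizes alone (-0.20). The first change of GCLM (0.41) was not called without the libraries rich in ribosomal RNA (0.36) and in 4 fits that left out 1 library. Without monoculture 72 h replicate 3, 7 of the 9 genes changed between 24 h and 72 h, with HMOX1 (0.30), TXNRD1 (0.39) and SRXN1 (0.29) added.

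The 7 lists of 142 other symbols around the pathway gave 127 listed genes, of which 45 were called higher and 34 lower in coculture in proliferation, 16 and 14 at 24 h, and 32 and 28 at 72 h. These shares lay near those of all genes. In proliferation 35.4% of the 127 were higher and 26.8% lower, beside 30.3% and 28.7% of all genes, at 24 h 12.6% were higher, beside 11.5%, and at 72 h 25.2% and 22.0%, beside 25.1% and 25.4%. The median log2 fold change of the 127 genes was 0.01, 0.02 and 0.03, in order of time, and that of all genes is given above. The NRF2 partners and regulators had 5 of 16 higher and 2 lower in proliferation, 0 and 2 at 24 h, and 2 and 2 at 72 h, with medians of -0.02, 0.06 and 0.03 on the log2 scale. BACH1, a repressor that competes with NRF2 at HMOX1, was at 100.1 ± 5.08 CPM in coculture against 76.0 ± 2.0 CPM in monoculture in proliferation (SD, n = 4; log2 0.40, edgeR adjusted p = 9.96e-08). DPP3, which binds KEAP1 in human cells, was higher by the same 0.40, and CUL3, the ligase scaffold, was lower (-0.29). SQSTM1, an autophagy receptor that binds KEAP1, was lower at 24 h, at 175.1 ± 4.94 against 285.5 ± 2.24 CPM (-0.71, edgeR adjusted p = 1.52e-13), and less so at 72 h (-0.20). The related factor NFE2L1 was lower at 24 h (-0.35), and at 72 h the NRF2 partner MAFK was lower (-0.46) and the ubiquitin ligase TRIM21 higher (1.07).

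The 33 genes of glutathione synthesis, reduction and conjugation had 11 higher and 9 lower in proliferation, 1 and 2 at 24 h, and 7 and 8 at 72 h, with log2 medians of 0.02, 0.01 and -0.03. Beside GCLC, the cystine importer SLC7A11 was higher in coculture at 72 h, at 8.04 ± 0.989 against 5.54 ± 0.842 CPM (SD, n = 4; log2 0.55, edgeR adjusted p = 0.000938). GGCT, of glutathione breakdown, was higher too (0.74, at 2.13 against 1.29 CPM). The microsomal transferase MGST1 was higher at 24 h (0.57) and 72 h (0.44), and HAGH, a glyoxalase, was lower at 24 h (-0.27). OPLAH, which recycles oxoproline to glutamate, was higher in proliferation (0.46) and lower at 24 h (-0.14). CHAC2 (-0.55) and GSTM4 (-0.46), whose family has close copies that make its counts uncertain, were lower in proliferation.

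Of 19 thioredoxin and peroxiredoxin genes, 6 were higher and 2 lower in proliferation, 6 and 2 at 24 h, and 5 and 4 at 72 h, with log2 medians of 0.06, 0.07 and 0.05. PRDX1, a peroxiredoxin that SRXN1 repairs, was lower at 24 h (-0.27) and 72 h (-0.31, or -0.16 without monoculture replicate 3), while PRDX6 was higher at 72 h (0.45). TXNIP, the inhibitor of thioredoxin, was higher in proliferation (0.52) and at 72 h (0.32). PRDX2 (0.33) and the methionine sulfoxide reductase MSRB1 (0.41) were higher in proliferation, and NXN (0.28) and TXNDC17 (0.31) at 24 h.

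Among 13 genes of haem and iron handling, 5 were higher and 1 lower in proliferation, 2 and 3 at 24 h, and 5 and 3 at 72 h, with log2 medians of 0.01, -0.04 and 0.04. ALAS1, the first enzyme of haem synthesis, was lower, as HMOX1 was, at 24 h (-0.39) and 72 h, where it stood at 111.1 ± 7.76 CPM in coculture against 217.6 ± 7.01 CPM in monoculture (SD, n = 4; -0.97, edgeR adjusted p = 1.49e-16). The transferrin receptor TFRC (0.76) and the haem synthesis enzyme CPOX (0.68) were higher at 72 h. In proliferation the ferritin light chain FTL (0.46), from a family with close copies, UROD (0.36) and the biliverdin reductase BLVRB (0.31) were higher, and at 24 h the haem transporter SLC48A1 (-0.26) and ABCB6 (-0.29) were lower.

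The 15 genes of NADPH supply had 8 higher and 6 lower in proliferation, 3 and 1 at 24 h, and 5 and 3 at 72 h, with log2 medians of 0.15, 0.05 and 0.07. IDH1, the cytosolic isocitrate dehydrogenase that yields NADPH, was lower in coculture at all 3 times, as NQO1 and TXNRD1 were. IDH1 averaged 272.3 ± 9.76, 163.3 ± 6.02 and 128.5 ± 15.7 CPM in coculture, in order of time, against 556.0 ± 20.7, 249.6 ± 10.6 and 354.3 ± 66.1 CPM in monoculture (SD, n = 4). Its log2 fold changes were -1.03, -0.61 and -1.46 (-1.32 without monoculture 72 h replicate 3). The transhydrogenase NNT was lower in proliferation (-0.44) and ME3 higher (0.52). The folate enzyme MTHFD2 was higher at 24 h (0.28) and 72 h (0.42), with NADK (0.19) at 24 h and ME1 (0.23) at 72 h.

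Of 20 detoxification and export genes, 7 were higher and 7 lower in proliferation, 3 and 1 at 24 h, and 6 and 4 at 72 h, with log2 medians of -0.06, 0.02 and 0.04. OSGIN1, an oxidative stress induced gene, was higher in proliferation (0.52) and lower at 24 h (-0.60) and 72 h (-0.43, or -0.25 without monoculture replicate 3), the order of signs that HMOX1 had. The aldose reductase AKR1B1 was lower at 72 h (-0.64), AKR7A2 higher in proliferation (0.41), and the exporter ABCC5 lower in proliferation (-0.34) and at 72 h (-0.44). ABCC1 (0.16) and CBR4 (0.17) were higher at 24 h.

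The 11 genes of superoxide and peroxide removal had 3 higher and 7 lower in proliferation, 1 and 3 at 24 h, and 2 and 4 at 72 h, with log2 medians of -0.23, -0.01 and 0.01. SOD2, the superoxide dismutase of mitochondria, averaged 111.7 ± 49.0 CPM in coculture against 16.8 ± 4.67 CPM in monoculture at 72 h (SD, n = 4; log2 2.75, edgeR adjusted p = 1.71e-12), a larger difference than any of the 9 genes had. The secreted dismutase SOD3 went the other way, at 19.6 ± 2.0 against 38.7 ± 1.93 CPM (log2 -0.98), and was lower at 24 h too (-0.40). The metallothionein MT2A, whose family has close copies, was higher in proliferation (0.96) and at 72 h (2.42), with 22.5 ± 11.6 against 4.29 ± 1.22 CPM. At 72 h coculture replicate 1, also rich in nuclear ribosomal RNA, held 2.24%, against 0.787 to 0.855% in the others of its group. The chi-square per degree of freedom of its counts with theirs was 47.1 to 53.8, against 2.18 to 3.09 between the others. Its part in the 72 h values of SOD2 and MT2A was not tested. SESN2 was higher in proliferation (0.63), SELENOW at 24 h (0.34), and SELENOP was lower in proliferation (-0.80) and at 24 h (-0.88) at 2.68 CPM or less.

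**Figure D5:**
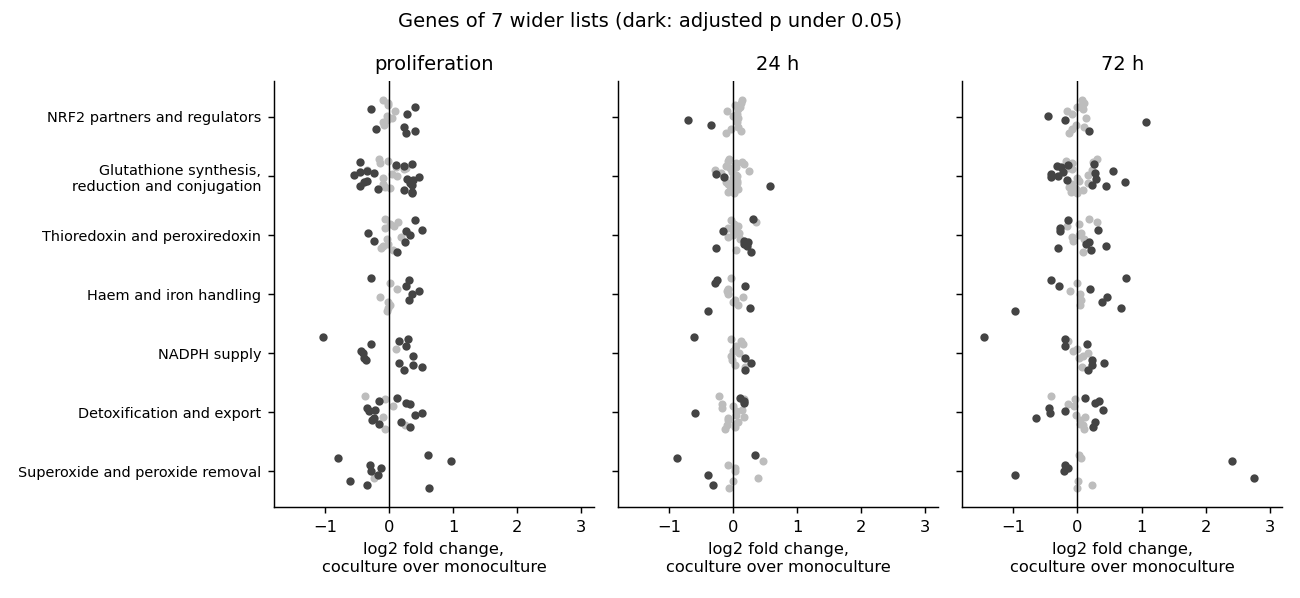
Log2 ratio of coculture to monoculture for the 127 listed genes of the 7 lists around the pathway, in proliferation, at 24 h and at 72 h, with genes called at an adjusted p under 0.05 in dark. IDH1 lies far left at each time, and SOD2 (2.75) and MT2A (2.42) far right at 72 h.

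Genes whose log2 CPM followed that of a member most closely over the 24 libraries, among the 9560 other genes with a symbol and a mean of at least 5 CPM, differed for each member. The libraries share culture, time and lane, so these correlations describe this set of libraries. HMOX1 was closest to TM4SF1 (Pearson r = 0.97) and the cyclin gene CCND1 (0.956), NQO1 to AMIGO2 (0.948) and TMTC2 (0.934), and TXNRD1 to DEGS1 (0.937) and SUN1 (0.895). SRXN1 was closest to JMJD8 (0.947) and NXF1 (0.926), KEAP1 to ACCS (0.945) and PTK7 (0.933), and NFE2L2 to DNAJB4 (0.899) and ADAM9 (0.895). GCLC was closest to OPTN (0.88) and TFRC (0.848), TXN2 to UBAC1 (0.916) and PES1 (0.892), and GCLM to RB1 (0.807) and SLC4A7 (0.785). No member was among the 2 closest genes of another member, which with 9560 genes compared does not tell if members vary together.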

How the data were processed

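The deposited count table holds whole numbers per gene and library, which may be rounded RSEM estimates. Genome build and annotation are not given in the sources used here. The submitters' processing notes name STAR, RSEM, DESeq2 and FastQC, with no version. Another 3 deposited tables, 1 per time, hold per the file headers the authors' log2 fold changes of coculture over monoculture with their standard errors, and their p-values, raw and adjusted. These gave gene names and coordinates and were otherwise read only where named. The count table has 36 library columns; 24 match the labels, and the other 12 match none and were not used.

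The analysis used edgeR 4.0.16 in R 4.3.3. All 24 libraries entered a single quasi-likelihood model with TMM scaling and 1 mean for each group (18 residual degrees of freedom; filterByExpr removed 0 of 11937 genes, the lowest count of any listed gene in any library being 6). In each of 10 comparisons Benjamini-Hochberg adjustment ran over all genes, with calls under 0.05. The SE was taken as the absolute log2 fold change divided by the root of F; approximate intervals use it with 18 degrees of freedom. Levels are TMM-scaled CPM, computed here; log2 CPM used a prior count of 2. Fits were tested on simulated counts. DESeq2 1.42.0 was an alternative. Wider lists named up to 3 called genes of largest change per list and time, and 2 most correlated genes were named per member. The members, lists and tests were chosen with earlier results of these data known. Libraries of a group differed by more than sampling noise (chi-square per degree of freedom 2.16 to 144), so none was counted as the same library sequenced again. These values do not tell if replicates were separate cultures. Counting depth and a biological coefficient of variation of 6.86% limit the precision.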

Additional observations from a re-analysis of the deposited data

Results flagged for a closer look

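In 54 sets of 4 libraries, 1 per member and group, 2 held a library far from the other 3, and chance gives about 1 in 20 sets. For NFE2L2, monoculture 72 h replicate 3 had 94.8 CPM, against 79.3, 79.8 and 80.3 CPM in the others of its group. For NQO1, coculture replicate 2 in proliferation had 99.7 CPM, against 84.0, 84.5 and 85.2 CPM.

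The difference between coculture and monoculture changed between times for several members, by edgeR's test of the change itself. Between proliferation and 24 h the log2 change was 0.28 for NFE2L2, -0.32 for KEAP1, -0.84 for HMOX1, 0.49 for NQO1, 0.41 for GCLM, -0.46 for TXNRD1, -0.55 for SRXN1 and -0.39 for TXN2. Between 24 h and 72 h it was 0.19 for NFE2L2, -0.66 for NQO1, 0.69 for GCLC and -0.34 for TXN2. Between proliferation and 72 h it was 0.47 for NFE2L2, -0.27 for KEAP1, -0.60 for HMOX1, 0.76 for GCLM, 0.68 for GCLC, -0.50 for SRXN1 (-0.26 without monoculture 72 h replicate 3) and -0.73 for TXN2. The edgeR adjusted p of these changes ran from 1.28e-09 (TXN2 between proliferation and 72 h) to 0.0344 (NFE2L2 between 24 h and 72 h). Calls lost with lane as a term were those of NFE2L2 between 24 h and 72 h and SRXN1 between proliferation and 72 h, and with library sizes alone those of TXN2 between 24 h and 72 h and of KEAP1 and SRXN1 between proliferation and 72 h. Coculture at 24 h has libraries in both lanes, while at 72 h no lane holds both cultures.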

How the results depend on the processing

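Over the members' fold changes, 756 of 801 values from the alternative settings kept their direction and side of the threshold, 25 lost a call, 20 gained one and none turned sign while called. The 756 include the setting with no filter on low counts, whose values could not differ, since the filter removed 0 genes. With lane 6 alone 1746 genes were called at 24 h in place of 2836, with fewer libraries in that fit. With lane as a term 3402 genes were called at 72 h in place of 6029; the cause was not tested. Without the 4 libraries rich in ribosomal RNA 7 members changed their difference between 24 h and 72 h in place of 4, and leaving out 1 library at a time gave 3 to 7. In proliferation the calls of HMOX1, GCLC, TXNRD1 and SRXN1 were each lost on leaving out at least 1 library, with values of 0.11 to 0.18, -0.27 to -0.20, -0.24 to -0.20 and 0.23 to 0.29. The correlation of same-numbered libraries' deviations ran from -0.142 to 0.119 over 60 same-numbered pairs of libraries, 1 of them over 0.1, so the numbers were not taken to pair libraries. With the replicate number as a block, 7009, 2756 and 5927 genes were called between cultures, in order of time, and of the members' calls between cultures only that of HMOX1 in proliferation (0.15) was lost. The fewest counts behind any value were those of GCLM, 56 to 233 per library.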
